A study of Homo sapiens with 2 samples.

Results

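Interferon-stimulated genes are the genes that cells switch on when interferon binds its receptors, and a fixed list of 47 of them was followed here in MDA-MB-231 cells, an established line from a human breast cancer that lacks hormone receptors. The members were taken by gene symbol, and all 47 were found among the 60774 genes of the deposited table. RNA-seq was available for 1 library with over-expression of YWHAB, the gene of the adaptor 14-3-3 beta, and for 1 library of the vector control. Whether either line was a single clone or a pool is not given in the sources used here. The series title connects over-expression of YWHAB with less migration and invasion, so these genes are not its stated subject. With 1 library per group no test across replicates was possible, no p-value is given, and a difference between the libraries is not shown to be a difference between the conditions. The protocol fields also speak of fat cell induction and of retinas, which could not be tied to these cells and were not taken as facts about them.

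Type I interferons signal through a receptor pair to the kinases JAK1 and TYK2, which phosphorylate STAT proteins. These join IRF9 and bind a short DNA element, the interferon-stimulated response element, in the promoters of target genes. The targets include helicases that sense foreign RNA, enzymes that act on double-stranded RNA, the ubiquitin-like protein ISG15, and effectors that block steps of viral growth. Many tumour cell lines keep a low level of these transcripts without added interferon. Proteins of the 14-3-3 family are known partners of this system: 14-3-3 epsilon (YWHAE) assists the sensor RIG-I and 14-3-3 eta (YWHAH) assists the sensor MDA5.

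The response element was found in the promoters of most members that had a promoter to search. Promoter windows of 300 bases (250 before the RefSeq start and 50 after it, build GRCh38.p14) were matched to 38 of the 47 members. Those not matched were DHX58, GBP2, IFIT2, IFITM2, IRF7, MX2, OAS2, OASL and USP18. The element was searched on both strands as GAAA, then NN (any bases), then GAAA without a gap, and 25 of the 38 members (65.8%) held a match, against 1195 of 27305 genes with a window (4.38%). The gamma-activated site, searched as TTCNNNGAA, was held by 11 of the 38 (28.9%), against 9.38% of all genes with a window. To compare a gene that was lower in the YWHAB library with one that was higher, the 250 bases before the start are shown for IFI6 (chr1:27672193-27672442, minus strand) and IFIT5 (chr10:89414318-89414567, plus strand), 5′ to 3′ in the direction of the gene. Each match that lies whole within these bases is in capitals. The window of IFIT5 held 3 matches, of which 2 are shown.
IFI6: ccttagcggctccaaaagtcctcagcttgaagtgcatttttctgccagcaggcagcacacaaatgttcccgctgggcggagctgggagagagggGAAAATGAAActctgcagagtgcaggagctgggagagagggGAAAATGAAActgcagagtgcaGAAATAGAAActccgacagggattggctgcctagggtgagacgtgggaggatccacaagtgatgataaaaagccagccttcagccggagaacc
IFIT5: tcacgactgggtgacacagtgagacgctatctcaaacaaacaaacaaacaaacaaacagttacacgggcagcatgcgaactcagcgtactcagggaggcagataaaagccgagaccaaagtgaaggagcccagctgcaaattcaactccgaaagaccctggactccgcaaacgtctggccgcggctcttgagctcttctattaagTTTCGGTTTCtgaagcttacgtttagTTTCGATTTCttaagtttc

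Shorter stretches around matches are shown for 8 more members, to set the element in genes with low ratios (IFI44L, IFI44, IFI27) beside those with ratios near or above 1 (IFIT3, OAS3). They lie at chr14:94110614-94110664 (IFI27, plus strand), chr1:78649757-78649788 (IFI44, plus), chr1:78620361-78620398 (IFI44L, plus), chr1:1013370-1013413 (ISG15, plus), chr19:17405731-17405774 (BST2, minus), chr10:89392493-89392543 (IFIT1, plus), chr10:89327861-89327898 (IFIT3, plus) and chr12:112938448-112938473 (OAS3, plus). Capitals again mark matches, and each stretch shows only those nearest the start that end before it. The windows of IFI44L, IFIT3 and OAS3 held up to 2 matches, of which 1 is shown here.
IFI27: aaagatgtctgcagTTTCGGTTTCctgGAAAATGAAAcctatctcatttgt
IFI44: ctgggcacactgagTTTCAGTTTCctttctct
IFI44L: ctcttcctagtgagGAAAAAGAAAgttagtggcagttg
ISG15: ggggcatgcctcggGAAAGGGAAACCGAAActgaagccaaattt
BST2: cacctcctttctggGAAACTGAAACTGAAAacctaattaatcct
IFIT1: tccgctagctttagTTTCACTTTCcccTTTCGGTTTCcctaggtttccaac
IFIT3: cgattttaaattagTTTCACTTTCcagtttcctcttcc
OAS3: ggagagccgggcggGAAAACGAAAcc
In ISG15 and BST2 a pair of matches overlaps, so that GAAA recurs at an even spacing. A match is a run of letters and not a measured binding site.

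Values are FPKM, which divides fragments by gene length and library size. Levels of different genes can be compared only as far as the length behind each FPKM suits its transcripts, which was not tested. Fragments worked out from the FPKM steps totalled 13810668 in the YWHAB library and 12375999 in the vector library. Each ratio below is the FPKM in the YWHAB library over that in the vector library, with an exact 95% counting interval (Clopper-Pearson) that covers counting error only, not the spread between cultures. Differences are log2(FPKM + 1), YWHAB minus vector, which shrinks the difference of genes with low levels. A gene was called 2-fold when its difference reached 1 in size and 1.5-fold when it reached 0.58. YWHAB itself was at 336 FPKM in the YWHAB library and 239 FPKM in the vector library, a ratio of 1.41 (1.36 to 1.45). Its difference of 0.49 was short of the 1.5-fold size. Its gene length was ambiguous, so the width of that interval is uncertain. MDA-MB-231 markers were present in both libraries, with VIM at 861 and 736 FPKM in the YWHAB and vector libraries, while CDH1 had 0 and 3 fragments. The ratio was 1.17 for VIM, and it was above that of YWHAB for the markers CD44 (1.43), AXL (1.47) and EGFR (1.70).

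Most of the interferon-stimulated genes were lower in the YWHAB library by a small margin, a few were lower by about 2-fold, and none was 1.5-fold higher. Of the 47 members 44 averaged at least 1 FPKM, the minimum used for a comparison, and 34 of these 44 were lower and 10 higher. Over all 13420 genes that met the same minimum, 46.8% were lower and 53.2% higher. The median difference was -0.23 over the 44 members and 0.03 over all genes compared. Over all 47 members, with no minimum, 36 were lower and the median was -0.22. In bulk RNA, fewer cells with such transcripts and less of them in each cell cannot be told apart.

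By size, OASL was the 1 member 2-fold lower, where 1.97% of all genes compared were, and 0 members were 2-fold higher, where 0.686% of all genes were. At 1.5-fold, 6 members were lower (13.6% of 44, background 6.57%): OASL, OAS1, IFI44, IFI6, IFI27 and IFI44L. At the same size 0 were higher (background 4.92%). The counting interval lay below equal levels for 22 members (background 21.8%) and above it for IFIT5, OAS3 and ADAR (6.82%, background 27.8%). For 16 of the 22 the difference was smaller than 1.5-fold.

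**Figure D1:**
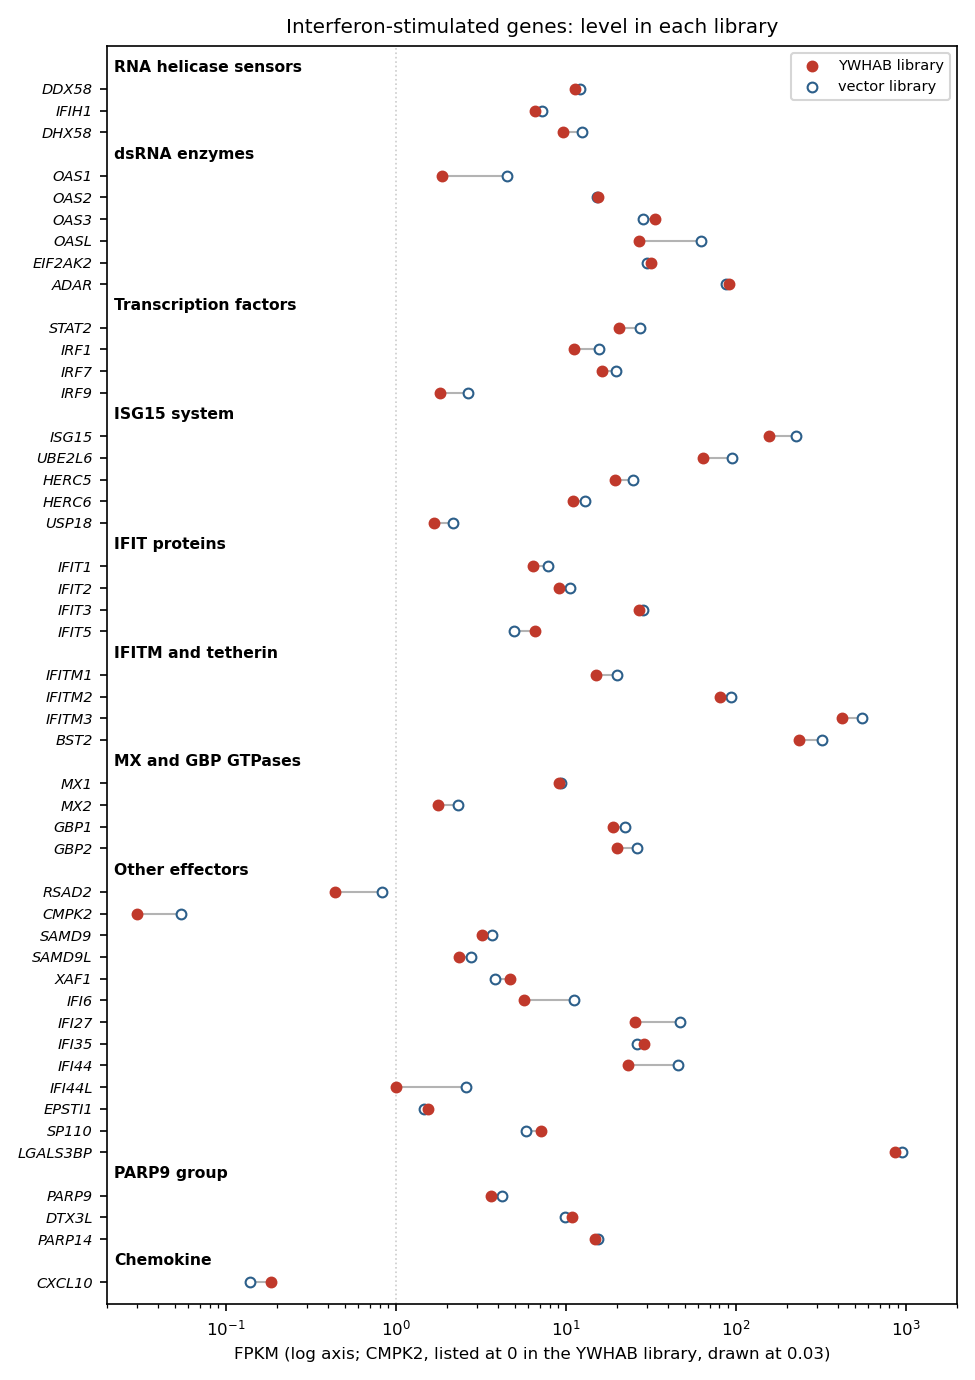
FPKM of each of the 47 interferon-stimulated genes (rows, grouped by role) on a log axis in the YWHAB library (filled red) and the vector library (open blue), with a grey line joining the 2 values (CMPK2, listed at 0 in the YWHAB library, is drawn at the left edge). Levels run from below 1 FPKM (RSAD2, CMPK2, CXCL10) to 866 and 952 FPKM for LGALS3BP, and most red points lie left of their blue point by less than the differences between genes.

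Levels differed far more between members than between libraries. Summed FPKM of the 47 genes was 2380 in the YWHAB library and 2917 in the vector library, a ratio of 0.82. LGALS3BP, IFITM3 and BST2 made up 63.9% and 62.6% of these sums, and without them the sums were 859 and 1090 FPKM (ratio 0.79). In both libraries 4 members exceeded 100 FPKM (LGALS3BP, IFITM3, BST2 and ISG15), and 13 stayed below 5 FPKM. Across the 44 members log2(FPKM + 1) in the YWHAB library correlated with that in the vector library with r = 0.98. This is a description across genes, which are not replicates.

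The RNA helicase sensors were all lower by a small margin, with the lowest ratio in the regulator LGP2. DDX58, which encodes RIG-I, a sensor of viral RNA ends, was at 11.3 FPKM in the YWHAB library and 12.1 FPKM in the vector library. Its ratio was 0.93 (0.83 to 1.04). IFIH1, which encodes MDA5, a sensor of long double-stranded RNA, was at 6.59 FPKM in the YWHAB library and 7.20 FPKM in the vector library (ratio 0.92, 0.74 to 1.13). For both genes the interval included equal levels. DHX58, which encodes LGP2, a helicase that tunes the other two, was at 9.55 and 12.4 FPKM in the YWHAB and vector libraries. Its ratio of 0.77 had an interval of 0.62 to 0.96, below equal levels. That interval overlapped those of DDX58 and IFIH1.

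The enzymes that act on double-stranded RNA were divided, with the 2 lowest ratios of the group in OAS1 and OASL and ratios at or above 1 in the other members. The OAS enzymes make 2-5A, the messenger that turns on the RNA-degrading enzyme RNase L. OASL, a relative without that activity that aids RIG-I, lies on chromosome 12 from 121019111 to 121039242 (GRCh38, minus strand). It was at 26.8 FPKM in the YWHAB library and 62.4 FPKM in the vector library, from 667 and 1390 fragments. The ratio was 0.43 (0.39 to 0.47) and the difference -1.19. OAS1, on chromosome 12 from 112906777 to 112933222, was at 1.87 FPKM in the YWHAB library and 4.52 FPKM in the vector library. Its ratio of 0.41 (0.26 to 0.65) rests on 29 and 63 fragments.

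OAS3 and OAS2 follow OAS1 on the same strand of chromosome 12, from 112938352 to 112973249 and from 112978395 to 113011723, and did not share its low ratio. OAS3 was at 33.5 FPKM in the YWHAB library and 28.2 FPKM in the vector library (ratio 1.19, 1.07 to 1.33). Its gene length was ambiguous, so the width of that interval, and whether it excludes equal levels, is uncertain. OAS2 was at 15.5 and 15.2 FPKM in the YWHAB and vector libraries (ratio 1.01, 0.89 to 1.16), and the sign of its small difference turned when the median ratio of well-expressed genes was set to 0. Neither interval overlapped that of OAS1. The intervals of OAS2 and OAS3 overlapped each other.

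EIF2AK2 encodes PKR, a kinase that halts translation on binding double-stranded RNA. It was at 31.7 FPKM in the YWHAB library and 30.01 FPKM in the vector library (ratio 1.06, 0.97 to 1.15). ADAR, which edits adenosine to inosine in double-stranded RNA, was at 91.5 and 87.6 FPKM in the YWHAB and vector libraries. Its ratio was 1.04 (1.002 to 1.09), and its difference of 0.06 turned to -0.03 once length and GC content were corrected for. The median difference of the 6 enzymes was 0.04 while their mean was -0.29, and the median turned to -0.01 under that correction.

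All 4 transcription factors of the list were lower in the YWHAB library, by ratios between 0.68 and 0.83. STAT2, which forms the interferon-activated complex, was at 20.4 FPKM in the YWHAB library and 27.2 FPKM in the vector library (ratio 0.75, 0.68 to 0.82). IRF1, the interferon gamma-responsive activator, was at 11.2 and 15.7 FPKM in the YWHAB and vector libraries (0.71, 0.60 to 0.84). IRF7, which drives interferon alpha genes, was at 16.3 and 19.8 FPKM (0.83, 0.70 to 0.97). IRF9, a DNA-binding part of the same complex, was at 1.80 and 2.65 FPKM from 22 and 29 fragments, and its interval of 0.37 to 1.23 included equal levels. IRF9 overlaps AL136295.5 on the same strand over 48.4% of its exon bases and 22.003% of those of IRF1 lie under C5orf56 on the other strand, so their fragments may be shared. The median difference of the 4 was -0.39.

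**Figure D2:**
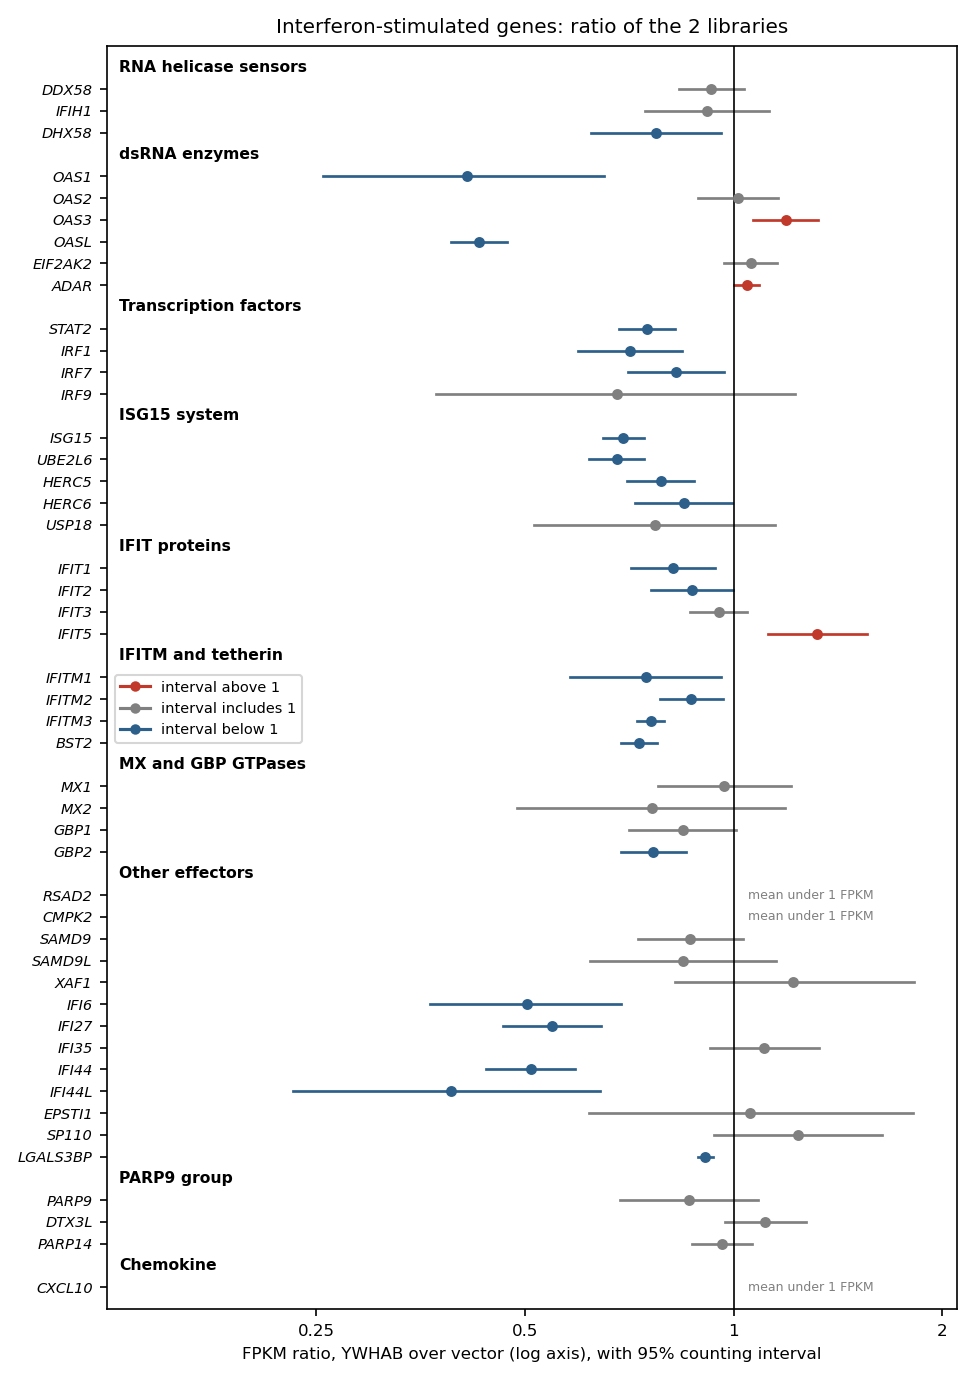
Ratio of FPKM, YWHAB library over vector library, for the 44 interferon-stimulated genes averaging 1 FPKM or more (points, log axis) with exact 95% counting intervals (bars), grouped by role. Bars in blue lie below 1 (22 genes), grey bars include 1, and red bars lie above 1 (IFIT5, OAS3, ADAR). The bar of OAS3 is uncertain in width because its gene length was ambiguous.

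The ISG15 system was lower in all 5 members. ISG15, a ubiquitin-like protein that is joined to other proteins and is also secreted, was at 156 FPKM in the YWHAB library and 225 FPKM in the vector library (ratio 0.69, 0.65 to 0.74). UBE2L6, the enzyme that carries ISG15 to its targets, was at 64.2 and 94.7 FPKM in the YWHAB and vector libraries (0.68, 0.62 to 0.74). HERC5, the main ligase for ISG15 in human cells, was at 19.5 and 24.8 FPKM (0.79, 0.70 to 0.88). HERC6, a relative of HERC5, was at 11.0 and 12.9 FPKM (0.85, 0.72 to 0.996). USP18, which removes ISG15 and dampens receptor signalling, was at 1.67 and 2.16 FPKM from 49 and 57 fragments, with an interval of 0.51 to 1.15 that included equal levels. USP18 shares 28.8% of its transcript 31-mers with USP41, so its reads may be split between them.

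Among the IFIT genes, neighbours on chromosome 10 whose proteins bind foreign RNA ends or assist that binding, ratios ran from 0.82 to 1.32. IFIT1 was at 6.38 FPKM in the YWHAB library and 7.81 FPKM in the vector library (ratio 0.82, 0.71 to 0.94). IFIT2 was at 9.15 and 10.5 FPKM in the YWHAB and vector libraries (0.87, 0.76 to 0.998), and IFIT3 at 27.0 and 28.4 FPKM (0.95, 0.87 to 1.047). IFIT5, which follows IFIT1 on that strand (89414586 to 89421001), was at 6.54 and 4.95 FPKM. Its ratio of 1.32 (1.12 to 1.56) was the highest among the 44 measured members, from 364 and 247 fragments. The intervals of IFIT1 and IFIT5 did not overlap.

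Membrane-acting factors were lower in all 4 members, of which IFITM3 and BST2 are among the most abundant transcripts of the list. IFITM3, which hinders viral fusion in endosomes, was at 420 FPKM in the YWHAB library and 553 FPKM in the vector library (ratio 0.76, 0.73 to 0.80). BST2, or tetherin, which holds budding virus at the cell surface, was at 235 and 322 FPKM in the YWHAB and vector libraries (0.73, 0.69 to 0.78). IFITM2 was at 81.1 and 93.3 FPKM (0.87, 0.78 to 0.97) and IFITM1 at 14.96 and 20.03 FPKM (0.75, 0.58 to 0.96). The IFITM genes have near-identical parts: 36.8% of the transcript 31-mers of IFITM3, 28.5% of those of IFITM2 and 12.7% of those of IFITM1 occur in genes elsewhere. IFITM1 and IFITM2 also overlap on the same strand, so how fragments were split among the 3 is uncertain. These 4 genes are short, and once length and GC content were corrected for, their differences were smaller: -0.07 in place of -0.20 for IFITM2, -0.27 in place of -0.40 for IFITM1, -0.31 in place of -0.40 for IFITM3 and -0.32 in place of -0.45 for BST2.

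The GTPases gave mixed evidence at this depth. MX1, which blocks influenza and other RNA viruses, was at 9.11 FPKM in the YWHAB library and 9.40 FPKM in the vector library (ratio 0.97, 0.78 to 1.21). MX2, a factor against HIV-1, was at 1.76 and 2.31 FPKM from 40 and 47 fragments (0.76, 0.49 to 1.19). GBP2, a guanylate-binding protein induced by interferon gamma, was at 19.9 and 26.0 FPKM in the YWHAB and vector libraries (0.77, 0.69 to 0.85), and GBP1 at 18.9 and 22.4 FPKM (0.84, 0.71 to 1.01). GBP2 was the 1 member of these 4 whose interval excluded equal levels. GBP1 shares 10.7% of its 31-mers with the pseudogene GBP1P1.

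The larger differences outside the OAS family were in IFI44, IFI44L, IFI6 and IFI27. IFI44, a feedback regulator of interferon responses, was at 23.2 FPKM in the YWHAB library and 45.5 FPKM in the vector library, from 284 and 499 fragments. The ratio was 0.51 (0.44 to 0.59). Its neighbour IFI44L, on the same strand of chromosome 1 (78619922 to 78646145, with IFI44 from 78649796 to 78664078), was at 1.00 and 2.56 FPKM in the YWHAB and vector libraries. The ratio of IFI44L was 0.39 (0.23 to 0.64) from 24 and 55 fragments, and the intervals of the pair overlapped.

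IFI6, a small mitochondrial and endoplasmic reticulum protein that limits apoptosis, was at 5.64 FPKM in the YWHAB library and 11.2 FPKM in the vector library (ratio 0.50, 0.36 to 0.69). IFI27, a related protein on chromosome 14, was at 25.5 and 46.6 FPKM in the YWHAB and vector libraries (0.55, 0.47 to 0.64). On the log2(FPKM + 1) scale these 4 genes and OAS1 lay between 1.5-fold and 2-fold lower, although the plain FPKM ratios of OAS1 and IFI44L were below that of OASL. The next member in order, UBE2L6, had a difference of -0.55, just short of the 1.5-fold size, and it passed that size when the median ratio was set to 0.

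The remaining effectors did not share this pattern. LGALS3BP, a secreted glycoprotein and the most abundant member, was at 866 FPKM in the YWHAB library and 952 FPKM in the vector library (ratio 0.91, 0.89 to 0.93), from 12670 and 12471 fragments. IFI35 was at 28.9 and 26.1 FPKM in the YWHAB and vector libraries (1.11, 0.93 to 1.33), SP110, a nuclear body protein, at 7.16 and 5.79 FPKM (1.24, 0.94 to 1.64), and XAF1, a promoter of apoptosis, at 4.70 and 3.85 FPKM (1.22, 0.82 to 1.82). These 3 were higher, each with an interval that included equal levels. Genes on the other strand cover 38.3% of the exon bases of XAF1 (PRAL) and 18.4% of those of SP110 (AC009950.1). SAMD9 and its neighbour SAMD9L, inhibitors of poxvirus growth, had ratios of 0.87 (0.73 to 1.03) and 0.85 (0.62 to 1.15). EPSTI1 was at 1.54 and 1.46 FPKM (1.06, 0.62 to 1.81).

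The PARP9 group was near equal. PARP9 and DTX3L, which form an ADP-ribosylation and ubiquitin ligase complex and share a divergent promoter on chromosome 3, were at 3.64 and 10.9 FPKM in the YWHAB library and at 4.22 and 9.81 FPKM in the vector library. Their ratios were 0.86 (0.69 to 1.08) and 1.11 (0.97 to 1.27). PARP14, a further ADP-ribosyltransferase, was at 14.8 and 15.4 FPKM in the YWHAB and vector libraries (0.96, 0.87 to 1.06). All 3 intervals included equal levels, and the sign of the median of the group depended on the minimum level.

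The other 3 members were too low to compare. RSAD2 (viperin) had 7 fragments in the YWHAB library and 12 in the vector library, CMPK2, which lies beside it on chromosome 2, had 0 and 1, and the chemokine CXCL10 had 3 and 2. The ratio of CXCL10 was 1.34, with an interval of 0.15 to 16.1. The mean of RSAD2 lay under the minimum of 1 FPKM, at 0.435 and 0.832 FPKM in the YWHAB and vector libraries, while EPSTI1 and IFI44L lay just above it.

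Members with and without a response element match had medians near each other, while the share 1.5-fold lower was larger in those with one. The 23 measured members with a match had a median of -0.17, with 18 lower (78.3%) and 4 of these 1.5-fold lower (17.4%). The 12 measured members without one had a median of -0.20, with 8 lower (66.7%) and 1 of these, OAS1, 1.5-fold lower (8.33%). Over all genes compared 46.8% were lower and 6.57% were 1.5-fold lower. The 9 members with no window, among them OASL, had a median of -0.26 (8 lower). For the gamma-activated site the medians lay farther apart, but the shares lower were close. The medians were -0.38 in the 11 measured members with a match and -0.17 in the 24 without one. Those lower were 8 (72.7%) and 18 (75.0%), and 2 (18.2%) and 3 (12.5%) were 1.5-fold lower. The sequences shown above belong to genes with ratios from 0.39 (IFI44L) to 1.32 (IFIT5). Among genes compared that are not members, the 359 with a match had a median of -0.01 and 6.41% were 1.5-fold lower, whereas in the 9101 without a match the median was 0.04 and 4.88% were 1.5-fold lower. No difference between sets was tested.

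**Figure D3:**
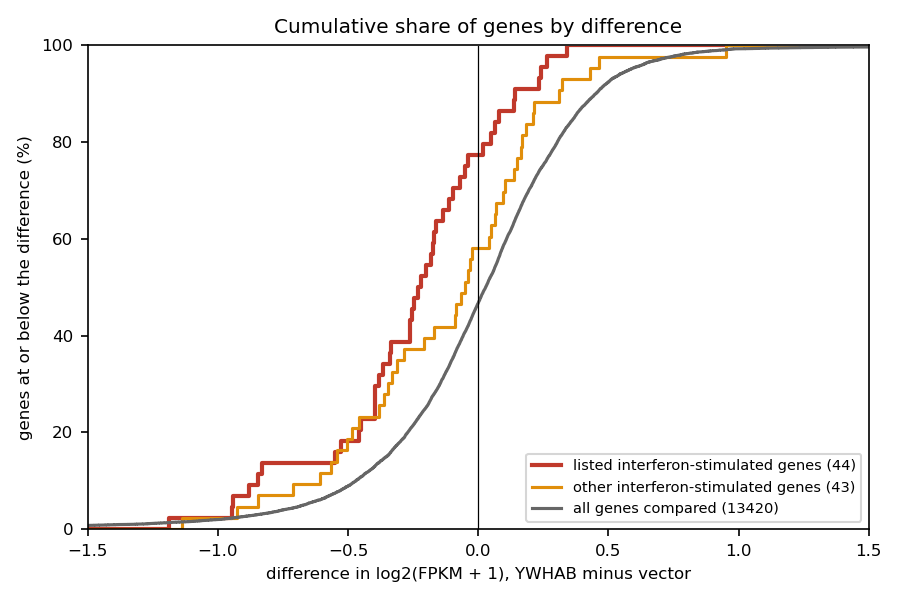
Cumulative share of genes (vertical axis, %) at or below each difference in log2(FPKM + 1), YWHAB minus vector (horizontal axis), for the 44 listed interferon-stimulated genes averaging 1 FPKM or more (red), 43 other interferon-stimulated genes (orange) and all 13420 genes compared (grey). At 0 the red line has passed 77.3% of its genes, the orange line 58.1% and the grey line 46.8%.

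Transcript length moved with these differences. The 14 shortest measured members (581 to 1059 nt) had a median difference of -0.40, the 16 of middle length (1125 to 2234 nt) -0.25, and the 14 longest (2256 to 5839 nt) -0.13. Protein-coding genes of the same lengths had medians of -0.06, 0.03 and 0.11, so the median of the members was the lower in each range. Once length and GC content were corrected for, the median of the 44 members was -0.24, the same 6 genes were 1.5-fold lower, and OASL stayed 2-fold lower.

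**Figure D4:**
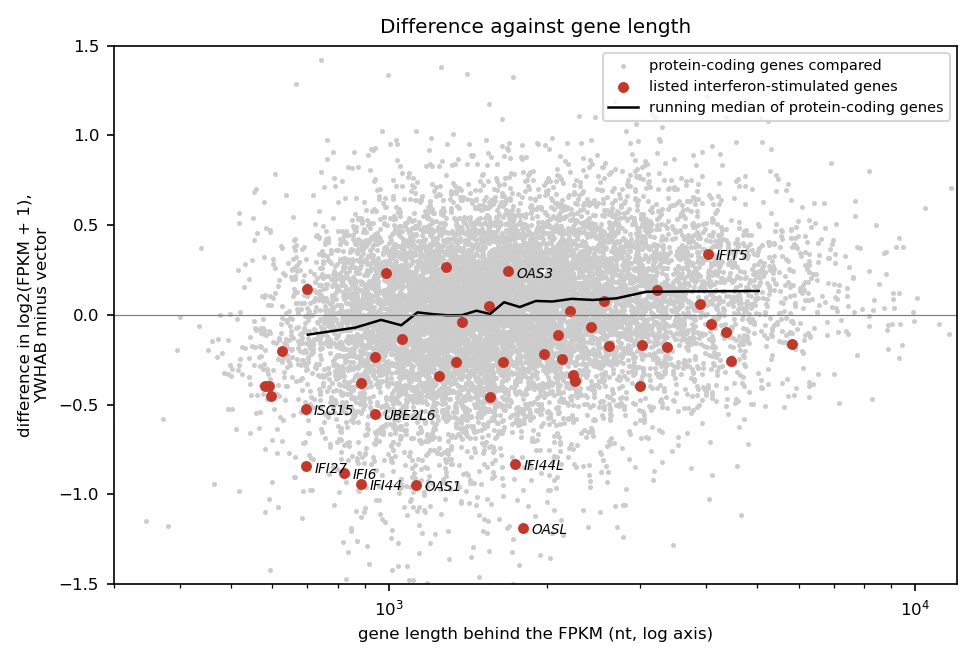
Difference in log2(FPKM + 1), YWHAB minus vector (vertical axis), against the gene length behind the FPKM in nt (log axis) for the 44 measured interferon-stimulated genes (red) and the protein-coding genes compared (grey, 77 beyond the axes not drawn), with the running median of the protein-coding genes (black). Most red points lie below the black line, and the lowest are labelled, with OAS3 and IFIT5 above it.

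Other genes of the pathway did not all follow the members. No interferon gene was measurable: of 21 ligands all had 0 fragments in the YWHAB library, while IFNL1 had 2 and IFNK 1 in the vector library. With 0 fragments seen, up to 3 remain possible, equal to 0.217 FPKM (YWHAB library) and 0.242 FPKM (vector library) at a length of 1 kb. Of 11 receptors, kinases and STATs 9 were measured, with 6 lower (66.7%, beside 46.8% of all genes compared), 3 higher and a median of -0.09. The interval lay below equal levels for 5 (55.6%, background 21.8%) and above them for 1 (11.1%, background 27.8%). By size 0 were past 1.5-fold (background 6.57% lower and 4.92% higher), with IFNLR1 just short of it at a difference of -0.56. IFNLR1, the receptor chain for interferon lambda, was at 2.34 FPKM in the YWHAB library and 3.93 FPKM in the vector library (ratio 0.59, 0.42 to 0.83). The chains of the interferon gamma receptor were at 12.3 and 17.7 FPKM (IFNGR1, 0.69) and at 14.2 and 20.1 FPKM (IFNGR2, 0.71) in the YWHAB and vector libraries. TMEM50B, on the other strand, covers 12.8% of the exon bases of IFNGR2 and was itself at 19.1 and 37.6 FPKM in the YWHAB and vector libraries. Fragments of the 2 genes may be shared, which was not tested, so the ratio of IFNGR2 is uncertain. IFNAR2 and IL10RB were near 0, with 1 and 4 fragments and 1 and 3 fragments, but both overlap a read-through gene, AP000295.1, on the same strand over 44.2% and 38.1% of their exon bases, so these values are uncertain.

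The genes upstream of interferon had a median close to that of all genes, but a larger share with intervals above equal levels. Of 14 listed, 13 were measured, with 8 higher, 5 lower (38.5%, beside 46.8% of all genes compared) and a median of 0.03. The interval lay above equal levels for 6 (46.2%, background 27.8%) and below them for 2 (15.4%, background 21.8%). MAVS, the mitochondrial adaptor to which RIG-I and MDA5 report, was the 1 gene past 1.5-fold, at 24.7 FPKM in the YWHAB library and 14.7 FPKM in the vector library (ratio 1.67, 1.59 to 1.77). The kinase IKBKE was at 18.6 and 14.2 FPKM in the YWHAB and vector libraries (1.304), and the adaptor TRAF3 at 37.3 and 29.1 FPKM (1.28). The sensor partners YWHAE and YWHAH were at 861 and 784 FPKM (1.10) and at 82.9 and 69.2 FPKM (1.198).

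Among 8 inhibitors of the response 7 were measured, with 4 lower and 3 higher. SOCS3, a cytokine-induced inhibitor of JAK kinases, was 2-fold higher, at 33.8 FPKM in the YWHAB library and 14.5 FPKM in the vector library (ratio 2.34, 2.03 to 2.70). CYLD, a deubiquitinase that restrains RIG-I and NF-kB signalling, was at 18.99 and 28.4 FPKM in the YWHAB and vector libraries (0.67, 0.60 to 0.74). RNF125, a ligase that marks RIG-I for breakdown, had a ratio of 0.74 (0.51 to 1.07) and the phosphatase PTPN6 one of 0.78, both with intervals that included equal levels.

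A second list held 51 interferon-stimulated genes, none of them members. Of these 43 were measured, with 25 lower, 18 higher and a median of -0.05, which lay between -0.09 and -0.01 under the alternative settings. At 1.5-fold 5 of the 43 were lower (11.6%, beside 13.6% of the members and 6.57% of all genes compared). The interval lay below equal levels for 18 (41.9%, beside 22 of the 44 members and 21.8% of all genes). It lay above them for 9 (20.9%, beside 27.8% of all genes). CASP1, the inflammasome protease, was the 1 gene 2-fold lower, at 8.38 FPKM in the YWHAB library and 19.6 FPKM in the vector library (ratio 0.43, 0.34 to 0.54). LGALS9 (galectin-9) was at 1.28 and 3.34 FPKM in the YWHAB and vector libraries (0.38) and GBP5 at 1.27 and 3.07 FPKM (0.41). APOBEC3G, a cytidine deaminase that restricts retroviruses, was the 1 gene 1.5-fold higher, at 20.6 and 10.2 FPKM (2.02, 1.69 to 2.43), with a difference of 0.95. How far the 2 lists differ was not tested.

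Markers of leukocytes, which express many of these genes at high level, were near 0. Of 14 leukocyte markers 6 had 0 fragments in both libraries, among them CD3E, and PTPRC (CD45) had 0 fragments in the YWHAB library and 1 in the vector library. Their summed level was 3.93 FPKM in the YWHAB library and 5.06 FPKM in the vector library, of which CD14 made 2.06 and 2.71 FPKM. Summed fibroblast and endothelial markers were at 18.1 FPKM in each library, mostly PECAM1. Adipocyte and retina markers summed to under 1 FPKM in each.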

How the data were processed

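RNA-seq of 1 YWHAB library and 1 vector library was used, each column taken from the sample whose description names it. The authors deposited FPKM values for 60774 Ensembl identifiers, per the labels. HISAT2 2.0.5 and build hg38 are named in the submitters' processing notes. The read counter, annotation release, strand setting and treatment of multiply matching reads were not given there or in the labels. Totals and whole fragments were worked out from the FPKM steps, and all 26770 genes above 0 came out whole within a relative tolerance of 1e-12. The gene length was ambiguous for 14.1% of them, including YWHAB and 6 members (IFITM3, OAS3, IRF1, PARP9, DTX3L and GBP2). It was set to the multiple closest to the GENCODE 29 mean over transcripts. That choice moves the interval width, not the ratio. The recovery was tested on simulated data. Symbols and coordinates (GRCh38) came from GENCODE 29, and DDX58 was matched to RIGI in RefSeq. FPKM was not rescaled. Genes averaging 1 FPKM or more were compared on log2(FPKM + 1). Python 3.11.15, numpy 2.4.6, pandas 2.3.3 and scipy 1.17.1 were used.

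The members, roles, motifs and other lists were chosen with earlier results of these data known. Every member is named. Of the other lists, up to 4 measured genes with the largest absolute difference are named, with any ligand that had a fragment and YWHAE and YWHAH; 1 gene that this rule names is not reported here. Other genes (the cell type markers and YWHAB apart) were named after their values were seen. Intervals cover counting error only, and because PCR duplicates were not distinguished they may be too narrow even for that. The share of 31-mers was taken over GENCODE 29 transcripts of genes at other places.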

Additional observations from a re-analysis of the deposited data

How the results depend on the processing

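The 7 alternatives were a pseudocount of 0.1, no minimum, a mean of at least 5 FPKM, rescaling to equal FPKM totals, the median ratio set to 0, correction for length and GC content, and protein-coding genes only. The median difference of the members stayed between -0.26 and -0.19, with 4 to 7 members 1.5-fold lower and 0 higher. With a pseudocount of 0.1, 3 members were 2-fold lower (OASL, OAS1 and IFI44L). In the second list of interferon-stimulated genes 3 genes were then 2-fold lower and 1 was 2-fold higher. Rescaling to equal totals also gave 1 gene 2-fold higher there. With no minimum 2 of that list were 1.5-fold higher, and with a mean of at least 5 FPKM 2 were 1.5-fold lower. The median of the double-stranded RNA enzymes turned to -0.01 after length and GC correction, and that of the PARP9 group to 0.04 with a mean of at least 5 FPKM. No member that was 1.5-fold lower changed sign under any of these. No paired analysis was possible because each group holds 1 library. Depth limits OAS1, IFI44L, IRF9, MX2, USP18, XAF1 and EPSTI1, each with at most 64 fragments in a library, and the 3 members below the minimum.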
